A study of Mus musculus with 6 samples.

Results

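The transcription factors Tbx21, Eomes, Rora, Gata3, Runx1, Runx3, Maf, Bhlhe40 and Irf4, which set and tune the identity of helper T cells, were followed in memory-phenotype CD4+ T cells of mice with experimental autoimmune encephalomyelitis (EAE), an induced inflammation of the central nervous system. Every probe set whose platform annotation names exactly 1 gene, and that gene 1 of these 9, was taken: 30 probe sets of 34945 with 1 symbol, and 9 genes of 18193. Cells were taken from the inflamed spinal cord (3 arrays) and from the inguinal lymph nodes that drain the immunisation site (3 arrays). All samples came from female C57BL/6 mice aged 8 to 10 weeks with acute clinical EAE induced by MOG35-55, a peptide of a myelin protein, and the labels name no genetic change and no treatment beyond the immunisation. The labels give neither the surface markers behind the memory phenotype nor the number of animals per array, and an array reports a mean over a mixed pool of helper cells. RNA was amplified in 2 cycles from 1 ng. The comparison asks how transcripts of T cells in the target tissue differ from those of T cells in the draining node.

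Naive CD4+ T cells become helper cells of different kinds when cytokine signals switch on a lineage factor. T-bet, encoded by Tbx21, directs type 1 cells that make interferon-gamma, GATA3 directs type 2 cells, and ROR-alpha takes part in directing type 17 cells. Runx proteins work with T-bet on the interferon-gamma and interleukin-4 genes, c-Maf drives interleukin-10, interleukin-4 and interleukin-21, IRF4 acts with BATF downstream of the antigen receptor, and BHLHE40 is needed by T cells that cause EAE through GM-CSF.

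The Runx genes are known to start from a pair of promoters. The upstream starts are shown for Runx1 and Runx3, whose brightest probe sets had unlike log2 changes between the tissues (-0.22 and 1.43). Neither change had an adjusted p below 0.05 in the main limma fit, as given below. The windows, from RefSeq on build GRCm38.p6, reach from 250 bases before to 50 bases after a transcript start, and windows were found for 7 of the 9 genes. Capitals mark the letters of any of 7 motifs, each searched on both strands. Runx proteins bind TGTGGT, which was found in 16.8% of all 32851 windows. T-box proteins bind AGGTGTGA (1.28% of windows), and GATA proteins bind letters such as AGATAA (11.2% of windows). ROR proteins bind a site that holds AGGTCA (16.3% of windows), and BHLHE40 binds the E-box CACGTG (7.15% of windows). Maf proteins bind a site that holds TGCTGA (19.5% of windows), and AP-1 factors bind TGANTCA (7.81% of windows). In the windows shown the marked matches do not overlap. The Runx3 window lies at chr4:135120395-135120694 on the plus strand and the Runx1 window at chr16:92826025-92826324 on the minus strand, both 5′ to 3′.
Runx3 upstream start: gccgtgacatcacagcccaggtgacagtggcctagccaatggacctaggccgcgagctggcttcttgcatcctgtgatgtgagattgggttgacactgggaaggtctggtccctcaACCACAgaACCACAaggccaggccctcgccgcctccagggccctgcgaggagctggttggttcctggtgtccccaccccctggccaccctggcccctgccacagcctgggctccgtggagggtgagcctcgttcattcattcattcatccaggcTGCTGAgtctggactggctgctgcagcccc
Runx1 upstream start: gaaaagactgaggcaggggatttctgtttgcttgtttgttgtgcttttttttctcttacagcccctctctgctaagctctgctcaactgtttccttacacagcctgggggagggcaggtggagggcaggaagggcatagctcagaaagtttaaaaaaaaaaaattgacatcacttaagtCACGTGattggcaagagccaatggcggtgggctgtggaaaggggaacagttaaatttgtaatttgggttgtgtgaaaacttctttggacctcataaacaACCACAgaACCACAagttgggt
Both held the same 14 letters, ACCACAGAACCACA, which hold the reverse complement of the Runx motif as a pair. The first letter lay at -134 in Runx3 and at 29 in Runx1, counting the first transcribed base as 1. Of all windows, 4 (0.0122%) held these 14 letters, and they belong to Runx1, Runx2, Runx3 and Gm16225. The Runx1 window also held the E-box, and the Runx3 window the letters of the Maf site. The window at the downstream start of each gene, not shown, held none of the motifs. Which start each probe set reports is not known.
The window of Tbx21, a gene that differed clearly between the tissues, lies at chr11:97115282-97115581 on the minus strand and is shown with its start region. None of the 7 motifs is in its letters, and a match or its absence in so short a window is a description only.
Tbx21: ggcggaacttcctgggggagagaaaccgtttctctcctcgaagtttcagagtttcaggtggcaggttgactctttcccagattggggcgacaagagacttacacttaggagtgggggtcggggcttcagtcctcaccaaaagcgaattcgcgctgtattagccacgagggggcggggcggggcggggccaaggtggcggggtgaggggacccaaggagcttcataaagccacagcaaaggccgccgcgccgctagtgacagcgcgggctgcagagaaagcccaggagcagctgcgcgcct

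Values are RMA intensities, a background-corrected and normalized brightness on a linear scale, and changes are spinal cord minus lymph node on the log2 scale with the standard error (SE) of the limma fit. Genes with an adjusted p below 0.05 are named as called. Array medians lay between 68 and 71. Markers of the labelled cell type were bright. Il7r read 9369 to 15762, Cd44 6312 to 10631 and Cd3g 5722 to 9945 over the 6 arrays, and 0 of 8 CD4 T cell markers were called by limma (0 at an unadjusted p below 0.05 as well). Markers of other cells were not equal. The summed intensity of 12 macrophage, monocyte and microglia genes was 1020 on spinal cord array 1, 4396 on array 2 and 2432 on array 3, against 497 to 645 over the lymph node arrays, with all 12 changes positive, none called by limma, 10 at an unadjusted p below 0.05, and 10 with groups that did not overlap. Of the brightest of them, Csf1r read 237 to 1486 against 57 to 99, Lyz2 245 to 1771 against 78 to 81 and C1qa 84 to 286 against 41 to 47. Of 5 neutrophil genes none was called by limma (1 at an unadjusted p below 0.05), with sums of 250 to 1241 against 176 to 270. S100a8 read 53 to 752 against 30 to 59, S100a9 32 to 210 against 29 to 39 and Camp 81 to 171 against 48 to 78. Of 6 dendritic cell genes Itgax rose (229 to 315 against 79 to 97), and the sums were 592 to 685 against 386 to 447. Flt3 read 150 to 169 against 129 to 148 and Zbtb46 70 to 78 against 60 to 67, and neither was called. All 6 changes were positive and 4 had groups that did not overlap, beside 8.81% of all genes on the higher side. Of 7 B and plasma cell genes Cd22 fell (98 to 116 against 620 to 750), with sums of 398 to 436 against 990 to 1135. Sdc1 read 74 to 97 and Jchain 25 to 116 over all arrays, and the defining B cell genes Ms4a1 and Cd79a 27 to 43 and 36 to 63. Cd79b, the partner chain of Cd79a, read 43, 29 and 39 against 117, 79 and 57 without overlap (adjusted p = 0.134 by limma; 0.0267 with the array number as a block). Of 4 NK cell genes the lectin receptor gene Klrc1, which T cells can also express, rose (2136 to 2761 against 217 to 448). With it the sums were 2240 to 2864 against 313 to 532, while Ncr1 read 50 to 64 and Klra8 12 to 16 over all arrays. Klre1 read 25 to 34 against 18 to 22 and was not called. The CD8 T cell genes Cd8a and Cd8b1 read 121 to 225 and 116 to 134, with sums of 281 to 349 against 255 to 314. The neural sums were 407 to 430 against 337 to 389, with Rbfox3 at 154 to 208, Gfap at 59 to 87 and Mag at 52 to 72. The part of other cells in the results that follow was not tested, and in such samples fewer cells of a type and less RNA per cell cannot be told apart.

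Of the 9 factors, Bhlhe40 and Tbx21 rose in the spinal cord samples, 0 fell and 7 were not called in the limma fit with Benjamini-Hochberg adjustment over all genes. Bhlhe40 was 9.87-fold and Tbx21 4.21-fold higher. Over all genes 2.54% were called, 1.13% higher and 1.41% lower. At an unadjusted p below 0.05 the counts were 5 higher and 1 lower of 9, beside 14.3% of all genes (5.39% higher and 8.89% lower). The median absolute log2 change of the 9 factors was 1.43, beside 0.18 over all genes, and their median signed change was 0.63 beside 0.00. In 6 of the 9 the tissue groups did not overlap (5 higher and Maf lower), beside 18.5% of all genes (8.81% higher and 9.68% lower). Arrays of the same number in the 2 tissues deviated together, so a fit with that number as a block was set beside the first. It called 5 of the 9, with Runx3 and Rora also higher and Eomes lower, beside 11.1% of all genes (3.67% higher and 7.45% lower). With the block 5 of the 12 macrophage genes were also called higher (Lyz2, Csf1r, C1qa, C1qb and P2ry12). The labels do not say what a number shares.

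**Figure D1:**
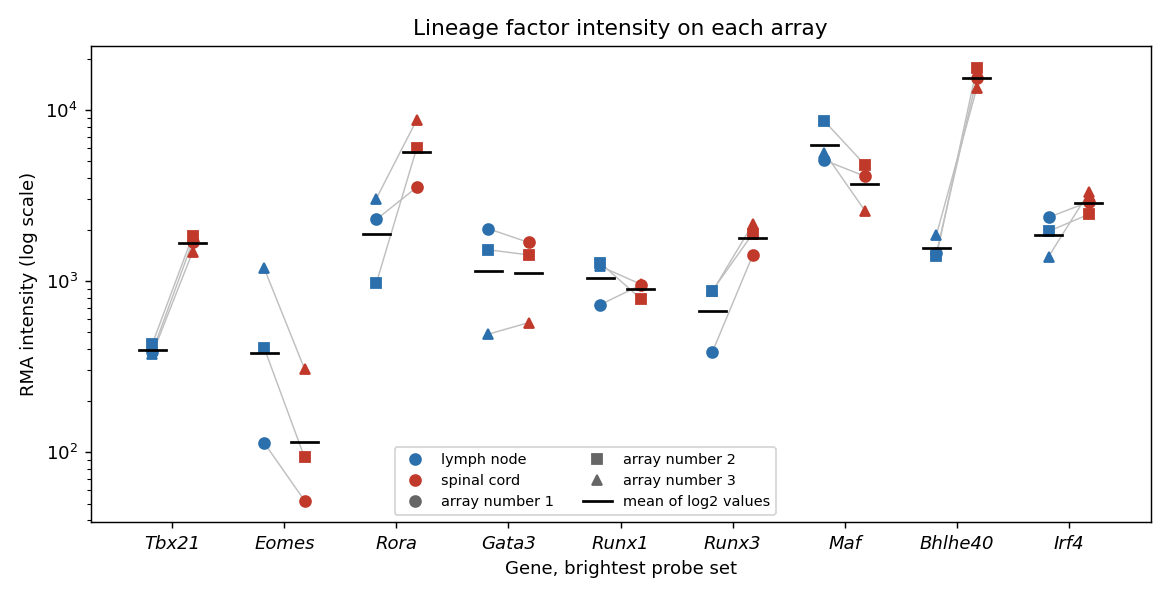
RMA intensity (log scale) of the brightest probe set of each factor on the 6 arrays, lymph node in blue and spinal cord in red, with marker shapes for the array number, grey lines joining arrays of the same number and black bars for the mean of log2 values. Bhlhe40 and Tbx21 stand apart by tissue with little spread, Gata3 spreads within each tissue in the same order of numbers, and Eomes runs from 52 to 1185.

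Tbx21 encodes the master factor of type 1 helper cells. In the order of array numbers 1 to 3, which holds for all triplets of values, it read 1688, 1826 and 1477 in spinal cord against 384, 427 and 372 in lymph node. The 2 groups lay far apart, and the spread within a tissue was small, at the 24.0th percentile of all genes (pooled SD 0.13 on the log2 scale). The log2 change was 2.07 ± 0.13 SE, from 10.69 ± 0.15 against 8.62 ± 0.10 (mean ± SD, n = 3 each), and limma gave an adjusted p of 0.00365. The ratio between arrays of the same number was 4.40, 4.28 and 3.97. Leaving out any single array kept the call of Tbx21 (adjusted p between 0.0120 and 0.0270).

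Eomes, the T-box relative of Tbx21 that is prominent in cytotoxic and NK cells and in some memory and regulatory CD4+ cells, went the other way in every numbered pair. It read 52, 93 and 306 in spinal cord against 113, 406 and 1185 in lymph node. The groups overlapped, since spinal cord array 3 lay above lymph node array 1. Its log2 change was -1.73 ± 1.00 SE (95% interval -4.17 to 0.71) and was not called (adjusted p = 0.534 by limma). Its spread within a tissue, a pooled SD of 1.51, was larger than that of 99.9% of genes. Lymph node exceeded spinal cord 2.17-fold, 4.37-fold and 3.87-fold in numbers 1, 2 and 3, and with the number as a block limma gave an adjusted p of 0.00898. A second, dimmer probe set read 56, 61 and 94 against 56, 152 and 247, equal in number 1, and had a log2 change of -0.90 ± 0.55 (adjusted p = 0.60 over probe sets; 0.151 with the block). The NK and CD8 marker values are those given above.

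The difference between the changes of the 2 T-box genes was itself measured within arrays. The log2 ratio of Tbx21 over Eomes was higher in spinal cord by 3.81 ± 1.29 SE, and the ratios of the 2 tissues did not overlap. By the exact permutation test, two-sided, p was 0.1, which is as low as 3 against 3 arrays can go (0.133 after Benjamini-Hochberg adjustment over 4 ratios). Within numbers the difference was 3.26, 4.22 and 3.94.

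Gata3 encodes the type 2 factor, which all CD4+ T cells also need at a lower level. It read 1681, 1422 and 571 in spinal cord against 2022, 1523 and 489 in lymph node. The groups overlapped over nearly their whole range, and in both tissues array 3 was far below the others. The log2 change came to -0.05 ± 0.65 SE, and the 95% interval of -1.62 to 1.53 leaves room for a change of either sign (adjusted p = 0.989 by limma). Its within-tissue SD of 0.97 was at the 98.4th percentile of all genes. Within numbers the log2 ratio lay between -0.27 and 0.22, and with the block the adjusted p was 0.873. The sign turned with some processing choices and with some single arrays left out.

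Set against Gata3 within each array, Tbx21 was higher in spinal cord by 2.12 ± 0.72 SE on the log2 scale, by 2.40, 2.20 and 1.77 in numbers 1, 2 and 3. The groups did not overlap (exact two-sided permutation p = 0.1, adjusted 0.133). Rora over Gata3 was higher by 1.64 ± 1.29, with overlapping groups (exact permutation p = 0.3, adjusted 0.3).

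Rora encodes ROR-alpha, a nuclear receptor that takes part in the type 17 programme. The brightest of 9 Rora probe sets read 3525, 5960 and 8725 in spinal cord against 2290, 970 and 3028 in lymph node. All spinal cord values were above all lymph node values, but the gap was narrow (3525 against 3028). On the log2 scale the change was 1.59 ± 0.51 SE, a 3.01-fold difference that was not called (adjusted p = 0.224 by limma; 0.0488 with the block). The 95% interval, 0.34 to 2.84, is that of a single gene and is not adjusted for the number of genes.

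Some of the other Rora probe sets gave more even values. Probe set 1455165_at read 1969, 2462 and 2737 against 620, 1210 and 1030, with a log2 change of 1.37 ± 0.28 (adjusted p = 0.0962 over probe sets; 0.0127 with the block). Probe set 1436325_at read 2193, 3836 and 3893 against 793, 1812 and 1791, with ratios within numbers of 2.77, 2.12 and 2.17. Probe set 1420583_a_at was not more even, at 909, 2505 and 3071 against 612, 739 and 1180. Its groups overlapped, and its log2 change was 1.24 ± 0.51 (adjusted p = 0.391 by limma over probe sets, 0.0465 with the block). Of the 9 probe sets all had positive changes, from 0.04 to 1.59 with a median of 1.24, and 6 had groups that did not overlap, beside 16.8% of all probe sets in either direction and 8.39% higher. None was called by limma without the block, beside 1.49% of all probe sets (0.701% higher). At an unadjusted p below 0.05 there were 7, beside 12.8% (5.31% higher). With the block 5 were called higher, beside 7.65% (2.94% higher). The 2 probe sets with the smallest changes read 19 to 67, at or below the array median, and the probe sets share the samples and are not independent. In the same arrays the macrophage genes were higher, with the sums given above.

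**Figure D2:**
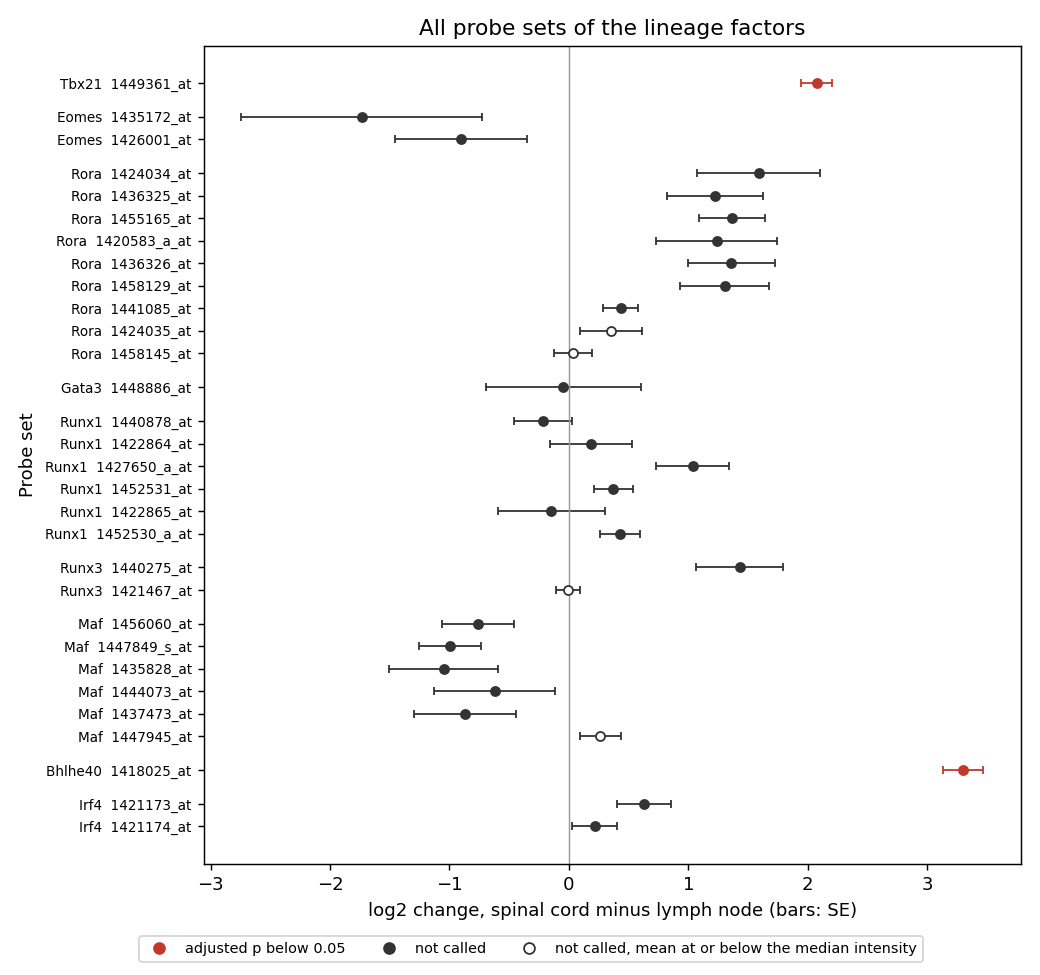
The log2 change (spinal cord minus lymph node, bars SE, n = 3 per tissue) of all 30 probe sets of the 9 factors, called ones in red and open circles for probe sets whose mean intensity is at or below the median of 71. Bhlhe40 and Tbx21 are the 2 called; the Rora probe sets lie right of 0, and 5 of 6 Maf probe sets lie left of it.

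The Runx proteins bind DNA with the shared partner CBF-beta, whose gene Cbfb read 5408 to 10344 in spinal cord against 6946 to 9675 in lymph node (log2 change -0.07 ± 0.27, adjusted p = 0.945 by limma). Runx3, which works with T-bet to open Ifng and silence Il4 in type 1 cells, read 1416, 1893 and 2146 in spinal cord against 385, 879 and 869 in lymph node. No values overlapped. The difference on the log2 scale was 1.43 ± 0.36 SE, a 2.69-fold difference (adjusted p = 0.130 by limma; 0.00863 with the block). The ratio within numbers was 3.68, 2.15 and 2.47. Its other probe set stayed at 63 to 70 on all 6 arrays, just below the median intensity of 71, with a log2 change of -0.01 ± 0.10.

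Runx1, expressed from the progenitor stage on and linked to keeping T cells quiescent, had 6 probe sets that disagreed. The brightest read 947, 788 and 959 in spinal cord against 728, 1275 and 1218 in lymph node, with overlapping groups and a log2 change of -0.22 ± 0.24 SE (95% interval -0.81 to 0.37; adjusted p = 0.774 by limma). Probe set 1427650_a_at read 806, 494 and 517 against 425, 235 and 239. Its groups did not overlap, the ratio within numbers was 1.90, 2.10 and 2.16, and the log2 change was 1.04 ± 0.31 (adjusted p = 0.226 over probe sets; 0.0103 with the block). Of the 6, 4 had positive and 2 negative changes. In 3 the groups did not overlap, all of them higher, beside 8.39% of all probe sets on that side. Only 1427650_a_at was called with the block, beside 7.65% of all probe sets (2.94% higher). The files do not say which transcripts each probe set detects.

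The log2 ratio of Runx3 over Runx1, taken from their brightest probe sets, was higher in spinal cord by 1.65 ± 0.25 SE and did not overlap between tissues. It was 1.5, 1.80 and 1.65 within numbers (exact two-sided permutation p = 0.1, adjusted 0.133). With the mean of all probe sets of each gene the difference was 0.44.

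**Figure D3:**
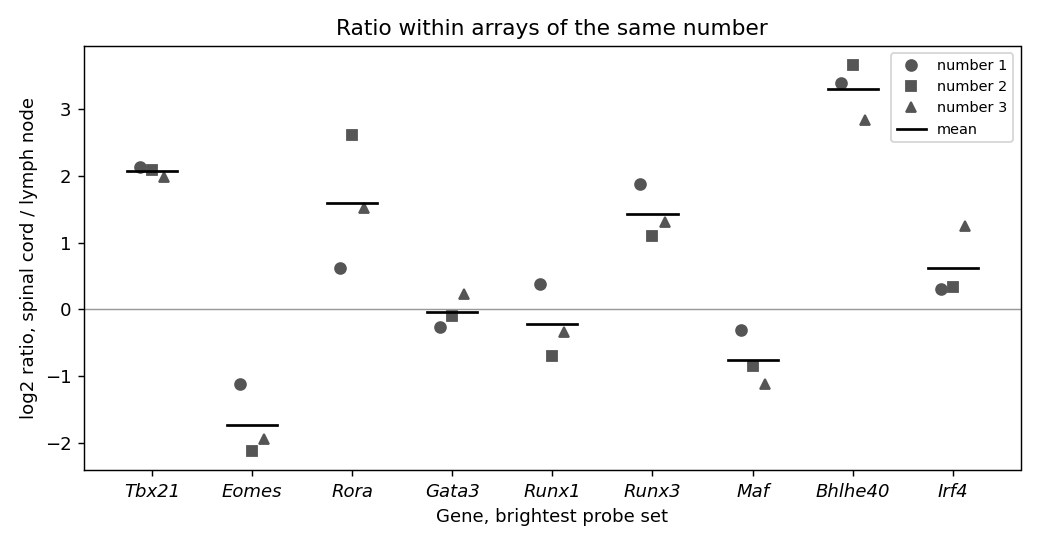
The log2 ratio of spinal cord over lymph node between arrays of the same number for the brightest probe set of each factor, with shapes for the number and a bar for the mean. The 3 ratios of Tbx21, Bhlhe40, Runx3, Rora and Irf4 are above 0, those of Eomes and Maf are below it, and those of Gata3 and Runx1 lie on both sides.

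Bhlhe40 had the largest change of the 9. It encodes a basic helix-loop-helix repressor that T cells induce on activation and that restrains interleukin-10. It read 15404, 17706 and 13455 in spinal cord against 1464, 1397 and 1868 in lymph node. The lowest spinal cord value was far above the highest lymph node value. The log2 change was 3.30 ± 0.17 SE, from 13.91 ± 0.20 against 10.61 ± 0.23 (mean ± SD, n = 3 each), and limma gave an adjusted p of 0.00191. The ratio within numbers was 10.5, 12.7 and 7.20. Leaving out any single array kept the call (adjusted p between 0.0112 and 0.0227). The macrophage sums of the same pairs were 1020 against 572, 4396 against 497 and 2432 against 645. Its relative Bhlhe41 read 38 to 45 against 37 to 44, below the array median.

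Irf4, whose product rises with the strength of the antigen receptor signal and is needed by type 2, type 17 and follicular cells, read 2903, 2458 and 3297 in spinal cord against 2356, 1951 and 1389 in lymph node. The groups did not overlap, although 2458 and 2356 were close. The log2 change was 0.63 ± 0.23 SE (95% interval 0.07 to 1.18), which was not called (adjusted p = 0.282 by limma; 0.134 with the block). A second probe set read 77 to 122, with overlapping groups. B cells and dendritic cells express Irf4 too, and their marker sums moved in opposite directions, as given above. In these lists Cd22 and Itgax were the genes called by limma. Cd79b was also lower without overlap, while Ms4a1 and Cd79a overlapped between the tissues. All 6 dendritic cell changes were positive. Of these, 4 had groups that did not overlap, Flt3 and Zbtb46 among them, beside 8.81% of all genes on the higher side. The part of these cells was not tested. Its partner gene Batf read 876, 705 and 1176 against 1880, 1320 and 2142, and the groups did not overlap (log2 change -0.96 ± 0.26, adjusted p = 0.155 by limma; 0.00802 with the block).

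Maf encodes c-Maf, a bZIP factor of interleukin-10-producing and follicular helper cells. Its brightest probe set read 4103, 4796 and 2584 in spinal cord against 5084, 8608 and 5639 in lymph node. All spinal cord values were below all lymph node values, with a log2 change of -0.76 ± 0.30 SE (95% interval -1.5 to -0.02; adjusted p = 0.335 by limma, 0.0526 with the block). Probe set 1447849_s_at read 2413, 1511 and 1394 against 2857, 3357 and 4203, also without overlap, which 8.45% of all probe sets showed on the lower side (-0.996 ± 0.26; adjusted p = 0.168 over probe sets, 0.0964 with the block). Of 6 probe sets 5 had negative changes, and the remaining one read 39 to 62, below the array median. None of the 6 was called by limma with or without the block, and 2 had an unadjusted p below 0.05 without it, both lower, beside 7.45% of all probe sets. Macrophages can also express Maf, and their marker sum was higher in the spinal cord samples; its part was not tested.

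The genes around these factors were taken from 6 lists of partners and known targets, with 62 of 70 genes measured. Of the 62, Nfil3, Ifng, Fasl, Il17a and Csf2 were the 5 that rose and Tox, Ccr6, Il4, Il21 and Cxcr5 the 5 that fell, and the median log2 change was 0.09. Over all genes 2.54% were called, 1.13% higher and 1.41% lower, and these shares stand beside each list below. Il4 and Ifng are shared between lists and are counted once here. Without spinal cord array 2 the count was 3, without lymph node array 2 it was 5, and with the block it was 26 (18 higher and 8 lower), beside 11.1% of all genes. The macrophage sum was higher in the same spinal cord arrays.

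Among 33 partners and relatives, Nfil3, a bZIP repressor with roles in several helper lineages, rose and Tox, a nuclear factor of T cell development and follicular cells, fell. Nfil3 read 1234, 922 and 877 against 169, 126 and 104, a log2 change of 2.94 ± 0.23. It kept its call in all 6 fits that left out an array. Tox read 100, 102 and 157 against 594, 848 and 805, a log2 change of -2.66 ± 0.23. It kept its call in 5 of the 6 fits (highest adjusted p 0.0516). The small Maf proteins, which lack an activation domain, gave Maff at 310, 650 and 1827 against 70, 77 and 67 (3.33 ± 0.61, adjusted p = 0.0544 by limma; 0.0137 with the block). Mafk was at 1191, 1034 and 1039 against 711, 526 and 439 (0.99 ± 0.20, adjusted p = 0.0702; 0.0124 with the block). For both, the spinal cord values lay above all lymph node values. The list median was -0.03, and with the block 8 of the 33 were higher and 4 lower, beside 3.67% and 7.45% of all genes.

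Of 13 T-box target genes, Ifng and Fasl rose, 12 had positive changes and 9 had groups that did not overlap. Over all genes 1.13% were called higher and 8.81% had higher groups without overlap. The list median was 1.30, beside 0.00 over all genes. The list was chosen with earlier results of these data known, so these counts are a description only. Among the 9, Il12rb2 read 24 to 33 and Ccl3 21 to 25 in lymph node, close to the 20th percentile of all values (25). The macrophage sum was higher in the same spinal cord arrays, and its part was not tested. Ifng read 12905, 18966 and 21388 against 258, 628 and 781, the widest separation in these lists on the high side. Fasl, the death receptor ligand, read 4588, 4122 and 5055 against 514, 790 and 1083. Their calls held in 5 and 3 of the 6 fits without an array. Il18rap, a chain of the interleukin-18 receptor, read 4905, 6997 and 2593 against 937, 1453 and 1037 (1.99 ± 0.38, adjusted p = 0.0634 by limma; 0.00717 with the block). Hlx, a homeobox partner of T-bet, read 125, 96 and 95 against 73, 66 and 67 (adjusted p = 0.117; 0.0312 with the block). With the block 8 of the 13 were higher and 0 lower, beside 3.67% and 7.45% of all genes.

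Of 4 measured ROR targets, Il17a rose (6420, 2152 and 1378 against 135, 173 and 90) and Ccr6, a chemokine receptor of type 17 cells, fell (1803, 1306 and 971 against 5741, 4864 and 4199). Each was called in 2 of the 6 fits without an array. Ccl20 and Il1r1 were not called, with log2 changes of 0.33 ± 0.12 and 0.41 ± 0.29. Of 7 Gata3 targets Il4 fell, from 157 to 545 in lymph node to 24 to 34 in spinal cord, and it was called in 1 of the 6 fits. Il13 read 45 to 58 against 39 on each lymph node array. Ccr8 read 753, 219 and 250 against 236, 35 and 48, with overlapping groups (adjusted p = 0.297 by limma; 0.00386 with the block).

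Of 7 Maf and Irf4 targets Cxcr5, Il21 and Il4 fell, beside 1.41% of all genes called lower, and the list median was -0.50. Il4 is the same gene that was counted among the Gata3 targets. Il21 read 367, 330 and 324 against 968, 1623 and 2516, without overlap, and was called in 2 of the 6 fits. Cxcr5, the follicle-homing receptor gene, read 39 to 74 against 2118 to 3016, and kept its call in all 6. Prdm1, which encodes Blimp-1, read 633, 757 and 1358 against 360, 344 and 453 (1.18 ± 0.30, adjusted p = 0.133 by limma; 0.0143 with the block), and Bcl6, its opponent, differed by -0.50 ± 0.34 on the log2 scale (adjusted p = 0.606). Of 4 cytokine genes linked to Bhlhe40, Csf2 (2335, 1078 and 2142 against 101, 91 and 93) and Ifng rose, beside 1.13% of all genes called higher. Ifng was already counted among the T-box targets. Csf2 was called in all 6 fits. Il10, which Bhlhe40 restrains, read 29 to 49 against 22 to 38, close to the 20th percentile of all values (25), and Il2 read 346 to 498 against 282 to 477 (adjusted p = 0.728).

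**Figure D4:**
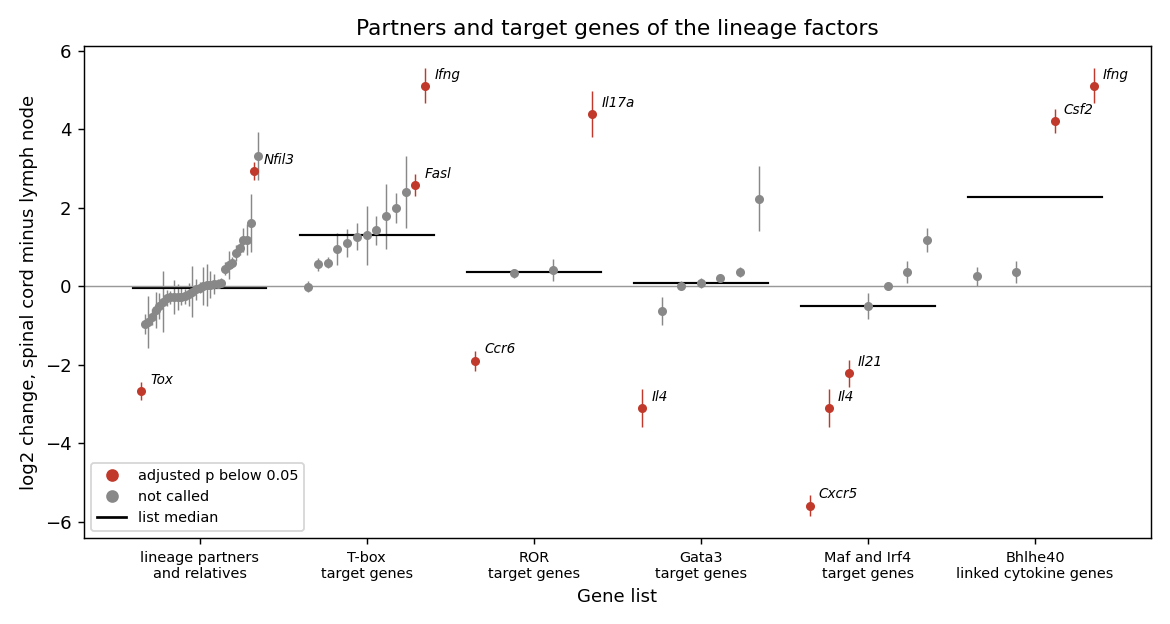
The log2 change (spinal cord minus lymph node, bars SE, n = 3 per tissue) of each measured gene in 6 lists of partners and targets, called genes in red with names and black lines for list medians. Of the T-box targets 12 of 13 lie above 0, while the called ROR targets Il17a and Ccr6 lie on opposite sides.

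The genes whose profile over the 6 arrays was most like that of a called factor were found by the root mean square difference of log2 values, each centred on its own mean. For Bhlhe40 these were Rgs16, a regulator of G protein signalling, at 0.15, the chemokine gene Cxcl3 at 0.25 and Rgs1 at 0.32. Rgs16 read 2791 to 4175 in spinal cord against 296 to 519 in lymph node. For Tbx21 they were Tmprss3, a membrane serine protease gene, at 0.15, the kinase gene Dyrk3 at 0.19 and the transporter gene Slc16a6 at 0.19. Slc16a6 read 1510 to 1914 against 321 to 468. With 6 arrays in 2 separate groups, a small difference shows mainly a change of like size.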

How the data were processed

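Gene expression was measured on 1 microarray per sample. Per the submitters' processing notes, the authors used RMA, with no version stated. The table deposited by the authors gives each of 45101 probe sets an intensity in whole numbers, 9 at the lowest and 39505 at the highest, which is a linear scale, and log2 was taken before the tests. Gene names came from the platform annotation. The tissue in the sample titles set the groups, and no label says that arrays stand for separate animals, so a p-value here reflects only how far these samples spread, which may be technical. Any 2 arrays differed in at least 93.5% of their values.

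The brightest probe set by mean of each of 18193 genes was tested with limma 3.58.1 in R 4.3.3 (lmFit and eBayes, tissue as the only term, two-sided, Benjamini-Hochberg over all genes). A second fit covered all 34945 probe sets with 1 symbol. Only the gene fit was tested on simulated data. Python 3.11.15 with scipy 1.17.1, numpy 2.4.6, pandas 2.3.3 and matplotlib 3.10.9 served for tables and figures. The factors, the gene lists and the tests were chosen with earlier results of these data known. Named genes were the 9 factors, each list's called genes and the 2 next by p, Cbfb, Bhlhe41, Batf, Il10, up to 3 brightest genes of each marker list, and the 3 nearest profiles of each called factor. Ncr1, Klra8, Ms4a1 and Cd79a were added as defining markers.

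Deviations from the tissue means correlated at 0.576, 0.509 and 0.777 for equal array numbers and at -0.569 to 0.00506 for unequal ones, over genes, which are not independent. The numbers were therefore taken to pair the arrays; no label states this. Alternatives were this block, fits without each array, a 40th-percentile filter on dim genes, other normalizations, variance models, array weights, a stricter threshold, a floor and other probe sets.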

Additional observations from a re-analysis of the deposited data

How the results depend on the processing

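Tbx21 and Bhlhe40 were the 2 called factors in each fit without the replicate block, at an adjusted p below 0.01 too except where an array was left out or the floor was set. With the replicate block 5 of the 9 factors were called, beside 2023 of all genes (11.1%). Of their 30 probe sets 10 were called with it, beside 7.65% of all probe sets. The cause was not tested. The number of called genes was 463, and 103 at the stricter threshold of 0.01, 161 with values below the 20th percentile set to it, 200 with the dimmest probe set of each gene, and 81 to 312 without single arrays. Of the 62 list genes 10 were called, 5 at 0.01, 5 with the floor, 26 with the block and 3 to 9 without single arrays; alternatives for the lists, and the restriction to probe sets above the median intensity, were chosen after seeing the data. The Gata3 change turned from -0.05 to 0.066 with quantile normalization, to 0.17 with array weights, and lay between -0.66 and 0.43 without single arrays. The Runx1 change turned to 0.28 with the mean of all probe sets and to 0.43 with the dimmest one, which also gave 0.26 for Maf and -0.0076 for Runx3. The 4 ratios between factors kept their sign in every alternative run, where the exact test could not reach the threshold (with the block the smallest p is 0.25). No detection calls were used here, so values near the 20th percentile intensity of 25 carry little information, and with 3 arrays per tissue the precision is limited.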

Other observations

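Some relatives of the factors differed within numbered pairs although their groups overlapped or they were not called; they are named after their values were seen. Irf8, an IRF4 relative of myeloid and B cells that activated T cells can express, read 1614, 1067 and 375 in spinal cord against 382, 509 and 115 in lymph node (adjusted p = 0.406 by limma; 0.00995 with the block). The macrophage sums of the spinal cord arrays, in the same order, were 1020, 4396 and 2432, and their part was not tested. Ikzf3, which encodes Aiolos, read 1040, 1389 and 974 against 1597, 2275 and 1994 without overlap (adjusted p = 0.130; 0.0204 with the block). Gfi1, which encodes a transcriptional repressor, read 1740, 1163 and 611 against 475, 588 and 375 (adjusted p = 0.241 by limma, 0.0337 with the block).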
